A study of Danio rerio with 9 samples.

Results

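RNA made by zebrafish embryos between the 1-cell stage and the 512-cell stage was compared with RNA made between the 1-cell stage and the 128-cell stage. The comparison rests on 4 of the 9 libraries of the series: 2 labelled libraries of 512-cell embryos and 2 labelled libraries of 128-cell embryos, chosen by their labels. Another 2 labelled libraries, of 256-cell embryos, entered the same fit, and 3 unlabelled libraries, 1 per stage, give the background of the purification. All embryos were wild-type AB zebrafish (Danio rerio) and whole embryos were used. The treatment text is the same for all 9 samples: each embryo was injected at the 1-cell stage with 4-thio-UTP, a uridine nucleotide that carries a sulphur atom (50 mM in 10 mM Tris-HCl, 1 nl). The labels nevertheless call 3 samples unlabelled, and what those embryos were injected with is not stated. RNA was biotinylated at the sulphur and captured on streptavidin beads, labelled and unlabelled samples alike, then amplified, with 15 PCR cycles at the end. The labels call the 2 labelled libraries of a stage technical replicates and do not say how many embryos were pooled. The p-values below therefore measure technical spread between libraries, not the spread between clutches.

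A zebrafish egg carries a store of maternal mRNA, and its genome is largely silent during the fast synchronous cleavages. Zygotic transcription starts at a few genes during these cleavages and broadens around the midblastula transition, when cell cycles lengthen and the maternal store begins to be cleared. A labelled nucleotide given at the 1-cell stage enters only RNA made afterwards, so an early zygotic transcript can be seen beside a maternal store of the same mRNA. Mitochondria transcribe their own genome throughout and take up the label too.

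Values are FPKM, the fragments assigned to a gene divided by its transcript length and by the library size. They were divided here by 1 size factor per library (the median ratio of its nuclear genes to their geometric mean over the labelled libraries), and are called scaled FPKM. Size factors were 1.38 and 0.646 for the 512-cell libraries, against 1.296 and 0.800 for the 128-cell libraries. The number of reads behind the values is unknown, so a value of 0 means only that a gene was listed at 0. Changes are log2 differences of scaled FPKM + 1, 512-cell minus 128-cell, given with their standard error, and the added 1 understates the change of low genes. Adjusted p-values are from limma with replicate number as a block, over all tested genes, with a threshold of 0.05.

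Labelled RNA of 894 genes was higher at the 512-cell stage (12.2% of 7317 tested), and labelled RNA of 113 genes was lower (1.54%). The 894 genes had a median of 8.19 and 6.73 scaled FPKM in the 512-cell libraries, against 0.641 and 0.584 in the 128-cell libraries. The genes that were lower had medians of 4.38 and 4.41 scaled FPKM at the 512-cell stage, against 8.36 and 7.90 at the 128-cell stage. The upward changes were large, with a median log2 change of 1.76 and a range of 0.50 to 8.97. The downward ones were small, with a median of -0.80 and a range of -2.11 to -0.52. Over all tested genes the median change was -0.04. Without the block the same fit called 552 genes higher (7.54%) and 6 lower (0.082%). With the block, 433 were higher (6.33%) without 512-cell replicate 1 and 553 (7.71%) without 512-cell replicate 2, and 26 and 30 were lower. List counts without a library are given below where they moved by more than 1.5 times. Fewer genes were tested without a 512-cell library (6836 without replicate 1, 7171 without replicate 2). A gene that missed the filter in such a fit was not tested there and is not counted as higher.

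**Figure D1:**
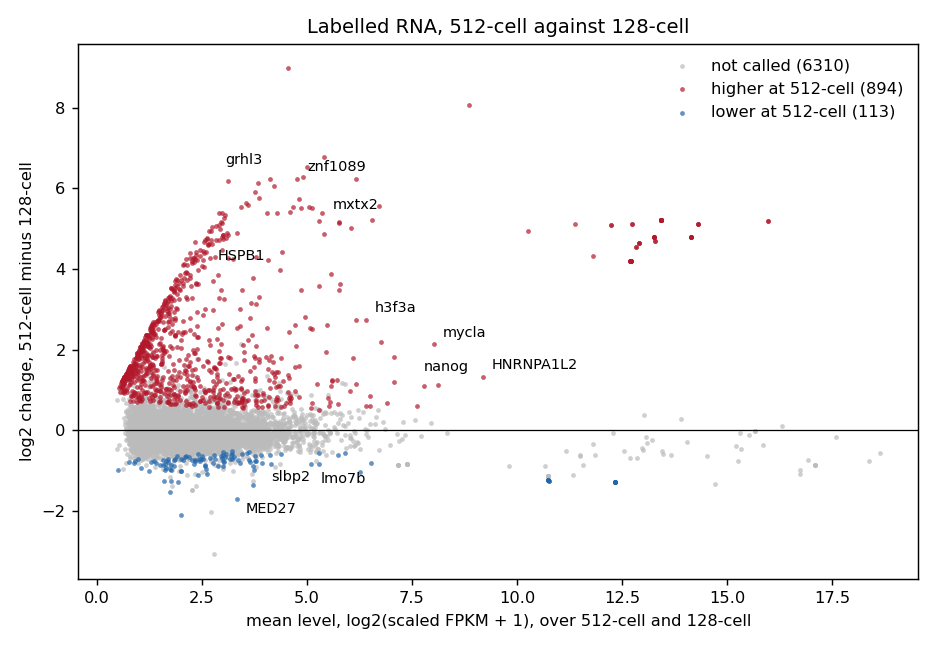
Log2 change of labelled RNA, 512-cell minus 128-cell (vertical), against the mean level over both stages as log2(scaled FPKM + 1) (horizontal), 1 point per tested gene. Red points (894) were higher at the 512-cell stage and blue points (113) were lower, at an adjusted p under 0.05. Red points reach 8.97, blue points stop at -2.11, and the group of red points at the far right holds genes without a symbol.

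Many of the genes that rose were scarce at the 128-cell stage. Of the 894, 86 were listed at 0 in both 128-cell libraries, and 474 lay under 1 scaled FPKM in both. A gene was tested if it reached 1 scaled FPKM in 2 of the 6 labelled libraries, so these 474 entered only through the 256-cell and 512-cell stages and are given as a description. Over all tested genes 694 (9.48%) lay under 1 in both 128-cell libraries. List counts below include such members. They describe the lists and are to be read beside the 12.2% of all tested genes that rose. A further group already had high labelled values: 140 of the 894 averaged 10 scaled FPKM or more at the 128-cell stage. Such values include the background of the purification. The 256-cell libraries lay in between for most of the 894. Stage medians of the 894 were 0.641 and 0.584 at 128-cell, 2.71 and 2.18 at 256-cell and 8.19 and 6.73 at 512-cell, and for 544 genes the libraries of the 3 stages did not overlap and ascended in this order. The same holds for 593 of all 7317 tested genes.

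The genes that rose held 61.2% and 80.4% of the summed nuclear FPKM in the 512-cell libraries, against 6.60% and 5.19% in the 128-cell libraries. In the unlabelled 512-cell and 128-cell libraries the same genes held 0.845% and 0.476%. Almost all of this sum came from genes without a gene symbol. The 452 risers with one held 0.647% and 0.112% of it at the 512-cell stage, against 0.266% and 0.101% at the 128-cell stage. The other 442, of which 363 have no symbol and 79 a clone name, held the rest. Of these, 55 IDs with no symbol, each with a mean of 1000 scaled FPKM or more over the 512-cell libraries, accounted for 60.1% and 80.2% at the 512-cell stage, against 6.25% and 5.06% at the 128-cell stage. Of these 55 IDs, 45 share all 9 values with at least 1 other, so the values do not tell those IDs apart. Across the IDs the 512-cell values ran from 2089 to 50296 scaled FPKM in replicate 1 and from 709 to 956910 in replicate 2. Within an ID, the ratio of replicate 2 to replicate 1 at the 512-cell stage ran from 0.0792 to 70.1, with a median of 4.11. Only 13 of the 55 passed without the block. Genes of the mitochondrial genome held 19.5% and 12.8% of all FPKM in the 512-cell libraries, against 35.8% and 42.7% in the 128-cell libraries and at most 0.456% in the unlabelled libraries. The part of these shifts in the results of single genes was not tested beyond the scalings given here.

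The number of genes called lower moved with the scaling. With every library set to 1 nuclear FPKM total, 527 genes were higher and 4941 lower, and the median change of all genes became -0.81. Higher genes made up 88.8% of all calls with median-of-ratios scaling and 9.64% with that total. Of the 894 genes, 790 stayed above the all-gene median under it. Directions below are relative to the median nuclear gene.

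Of the 2 IDs without a symbol that rose most, ENSDARG00000081623 stood at 772 and 326 scaled FPKM at the 512-cell stage and stood at 0 in both 128-cell libraries and in every unlabelled one. Its 256-cell libraries held 259 and 94.1. The second, ENSDARG00000081650, stood at 8958 and 709 at the 512-cell stage, against 87.3 and 0 at the 128-cell stage, and had an adjusted p of 0.378 without the block.

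The 30 named genes with the largest rises changed by 4.42 to 6.24, with standard errors of 0.13 to 0.35. All 30 also passed without the block and in each of the 6 fits that left out 1 labelled library, and for 29 of them the libraries of the 3 stages did not overlap. Their 512-cell values ran from 17.0 to 416 scaled FPKM, against 0 to 7.74 at the 128-cell stage. Absence of overlap between the 512-cell and 128-cell libraries was a condition for entering this set, and so was a call with the block. Many of the 30, among them blf, drll.3, foxd5 and GATA3, lay under 1 scaled FPKM in both 128-cell libraries. They entered only through the later stages, so the passing of the 30 in the other fits is given as a description. Gene symbols are printed in the case in which the name table gives them.

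**Figure D2:**
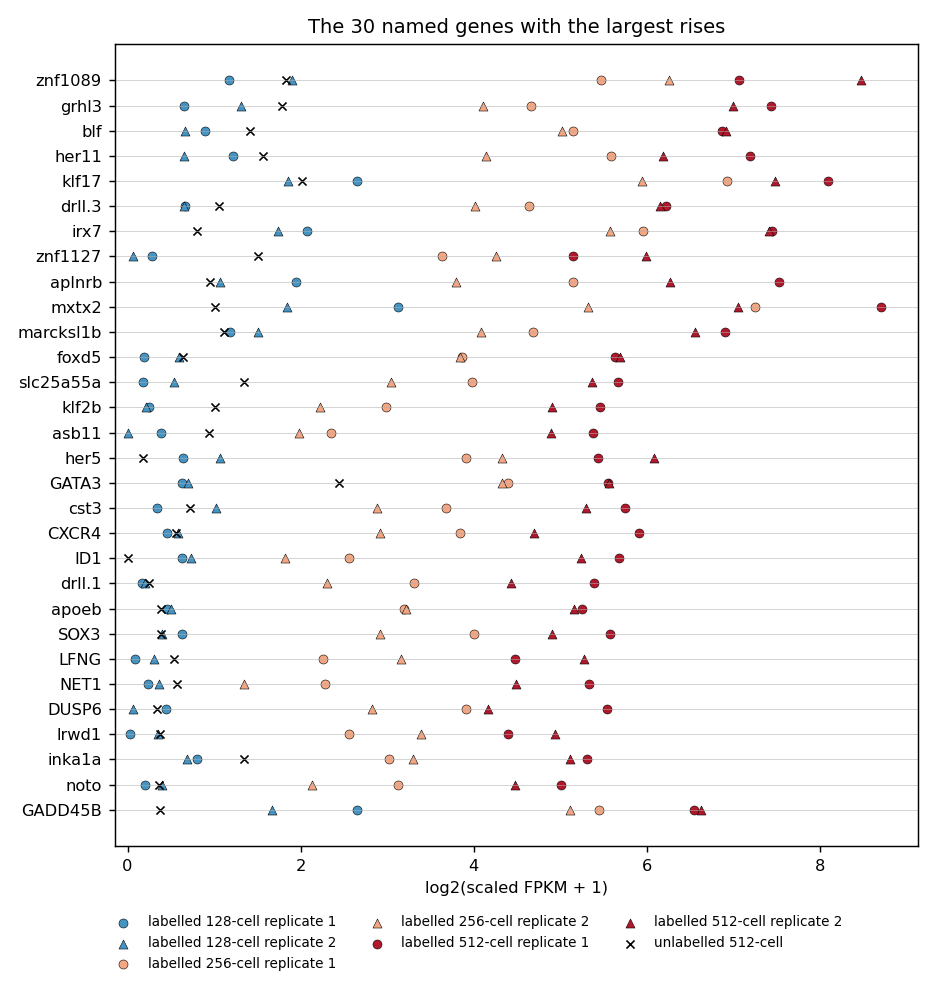
Levels of the 30 named genes with the largest rises, 1 row per gene, as log2(scaled FPKM + 1); circles are replicate 1, triangles replicate 2, colours the 3 stages, and crosses the unlabelled 512-cell library. The 512-cell symbols (17.0 to 416 scaled FPKM) lie right of the 128-cell symbols (0 to 7.74) in every row, and the unlabelled 512-cell values reach 4.45.

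Zinc-finger and Krüppel-like factors were among the largest rises. znf1089, a zinc-finger gene, held 132 and 356 scaled FPKM at the 512-cell stage, against 1.25 and 2.73 at the 128-cell stage, a change of 6.24 ± 0.20 (adjusted p = 5.06e-05). blf, named bloody fingers in zebrafish, held 116 and 120 at the 512-cell stage, against 0.861 and 0.583 at the 128-cell stage. The replicates of blf were close and those of znf1089 were not, and for both genes the stages were far apart. klf17, a Krüppel-like factor of the hatching gland and outer cell layer in zebrafish, held 271 and 177 at the 512-cell stage, against 5.28 and 2.61 at the 128-cell stage. klf2b (4.95 ± 0.21) and klf2a (3.98 ± 0.15), close relatives of each other, rose as well. Of the 12 tested members of the Krüppel-like and Sp list 5 rose (41.7%, against 12.2% of all genes). The others were SP5, a factor that Wnt signals induce, and KLF11, whose adjusted p without the block missed the threshold. klf2b, klf2a and SP5 lay under 1 scaled FPKM in both 128-cell libraries and entered only through the later stages. Of 99 tested genes in the list of other zinc-finger genes 31 rose (31.3%, against 12.2% of all genes) and none fell. They include drll.3 (5.52), znf1127 (5.39), 8 znfl genes (1.03 to 3.27), a family whose reads may not separate its members, and the Snail repressors snai2 (2.85) and snai1a (2.60), which act on cell adhesion. In the fit without the block 25 of the 31 passed. Of 137 measured members 99 were tested. Many of the 31, among them blf, drll.3 and znf1127, lay under 1 scaled FPKM in both 128-cell libraries. They entered only through the later stages, so the share of this list is given as a description. That list had 11 higher genes with 512-cell replicate 1 left out and 14 with replicate 2 left out.

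Regulators of the embryo's outer and yolk-side layers were among the largest rises. grhl3, a grainyhead factor of epidermal differentiation, held 171 and 127 scaled FPKM at the 512-cell stage, against 0.574 and 1.47 at the 128-cell stage (6.23 ± 0.30, adjusted p = 0.000145). GATA3, a zinc-finger factor of non-neural ectoderm, held 45.7 and 46.4 at the 512-cell stage, against 0.548 and 0.627 at the 128-cell stage. mxtx2, a homeobox factor that acts in the yolk syncytial layer, held 416 and 132 at the 512-cell stage, against 7.74 and 2.60 at the 128-cell stage. The replicates of mxtx2 differed more than those of GATA3. GATA2 (2.91), TFAP2A (2.15) and TFAP2C (2.10) rose too. That makes 5 of 13 in the list of GATA, T-box, grainyhead, p63 and nuclear receptor factors (38.5%, against 12.2% of all genes). The name of the list does not cover TFAP2A and TFAP2C, which it also holds. Of the 5, GATA3, GATA2, TFAP2A and TFAP2C lay under 1 scaled FPKM in both 128-cell libraries and entered only through the later stages. Among structural epithelial genes the claudin gene cldne, whose product seals cell junctions, stood at 1.64 and 1.33 at the 512-cell stage and was listed at 0 in both 128-cell libraries. In all 5 of 25 tested members of the enveloping layer list rose (20%, against 12.2% of all genes), 3 of them the regulators grhl3, klf17 and GATA3. The remaining one, CDH2, the neural cadherin, missed the threshold without the block (adjusted p = 0.193). Like GATA3, both cldne and CDH2 lay under 1 scaled FPKM in both 128-cell libraries and entered only through the later stages. apoeb, an apolipoprotein E gene and a marker of the yolk syncytial layer, held 37.1 and 34.6 at the 512-cell stage, against 0.376 and 0.417 at the 128-cell stage. Only apoeb and mxtx2 rose among the 6 tested genes of that layer's list (33.3%, against 12.2% of all genes), and apoeb entered only through the later stages. With either 512-cell replicate left out the GATA list had 3 higher genes, and with replicate 1 left out the enveloping layer list had 3. Whole embryos were used, so more cells of a type and more RNA per cell cannot be told apart.

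Homeobox, forkhead and Sox factors followed. Of 24 tested homeobox genes 10 rose (41.7%, against 12.2% of all genes) and none fell. Of the 10, IRX3, dharma, GSC, cdx4, mixl1, DLX1 and otx2a lay under 1 scaled FPKM in both 128-cell libraries, DLX1 and otx2a at 0. They entered only through the later stages, so the share of this list is given as a description. irx7, an Iroquois factor of the neural plate, held 174 and 169 scaled FPKM at the 512-cell stage, against 3.22 and 2.34 at the 128-cell stage (5.52 ± 0.14). dharma, the repressor that sets up the dorsal organizer in zebrafish, held 15.3 and 9.79 at the 512-cell stage, against 0.786 and 0 at the 128-cell stage. GSC (2.75), the organizer factor goosecoid, IRX3 (3.37), otx2a (2.21), cdx4 (2.37) and mixl1 (1.11) also rose, and noto (4.45), a notochord factor, was outside the list. foxd5 rose most among forkhead factors, with 48.7 and 50.5 at the 512-cell stage, against 0.143 and 0.511 at the 128-cell stage. FOXB1 (3.73) and foxa3 (2.24) rose. foxh1, the partner of Smad proteins in Nodal signalling, held 37.8 and 23.8 at the 512-cell stage, against 12.9 and 8.50 at the 128-cell stage. Its adjusted p without the block (limma) was 0.0958, and the unlabelled 128-cell library held 7.83. Forkhead genes numbered 17 tested, with 5 higher (29.4%, against 12.2% of all genes) and foxo3a lower. Of the 5, foxd5, FOXB1 and foxa3 lay under 1 scaled FPKM in both 128-cell libraries and entered only through the later stages. With 512-cell replicate 1 left out the homeobox list had 6 higher genes, and with either 512-cell replicate left out the forkhead list had 3. SOX3 (4.72) and sox19a (4.41), SoxB1 factors of the early neural ectoderm, rose with SOX11 and hmga1a, an AT-hook chromatin protein. That makes 4 of 19 in the Sox and HMG-box list (21.1%, against 12.2% of all genes). Of the 4, SOX3, sox19a and SOX11 lay under 1 scaled FPKM in both 128-cell libraries and entered only through the later stages. Of the 2 IDs named SOX11, ENSDARG00000077811 rose by 2.85, whereas ENSDARG00000095743 held 20.2 and 17.7 at the 512-cell stage, against 14.3 and 11.8 at the 128-cell stage, with a change of 0.50 (adjusted p = 0.0528).

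In the basic helix-loop-helix list 11 of 22 tested genes rose (50%, against 12.2% of all genes), with a list median of 1.38 against -0.04 over all genes. Of these, 6 are hairy-related repressors, which act downstream of Notch or in the somite clock. her11 held 146 and 72.0 scaled FPKM at the 512-cell stage, against 1.33 and 0.575 at the 128-cell stage. her5 held 42.2 and 66.7 at the 512-cell stage, against 0.564 and 1.09 at the 128-cell stage. Replicate 1 was the higher for her11 and replicate 2 for her5, at both stages. her7 (2.44), HES3 (2.14) and HES1 (1.36) rose by less. ID1, an inhibitor of helix-loop-helix factors that Bmp signals induce, held 50.4 and 36.7 at the 512-cell stage, against 0.544 and 0.669 at the 128-cell stage. The list also holds the Myc genes MYCN (2.04) and mycla (2.13), and mycla, ID3 and her1 missed the threshold without the block. Of the 11, ID1, ascl1a, HES3, MYCN, her1 and HES1 lay under 1 scaled FPKM in both 128-cell libraries. They entered only through the later stages, so the share of this list is given as a description.

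Of the 31 tested genes in a list of early zygotic regulators 29 rose (93.5%, against 12.2% of all genes). The list median was 4.72, and 28 passed without the block. Many of the 29, among them blf, drll.3, foxd5 and GATA3, lay under 1 scaled FPKM in both 128-cell libraries. They entered only through the later stages, so the share, the median and the count without the block are given as a description. This list was compiled from genes known to be transcribed early in zebrafish and with earlier results of these data known, so its count is not independent evidence. The remaining 2 were FOXD3, which was listed at 1.85 and 0.000355 scaled FPKM at the 512-cell stage and at 0 in both 128-cell libraries, and the second SOX11 ID.

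Signalling genes that rose include ligands, inhibitors and receptors used later in gastrulation. In the Nodal, Bmp and TGF-beta list 10 of 25 tested genes rose, 6 without 512-cell replicate 1, and 1, GDF9, was lower. Higher genes were 40% of this list, against 12.2% of all genes. The Nodal ligand gene ndr1 held 16.2 and 12.1 scaled FPKM at the 512-cell stage, against 0.585 and 0.517 at the 128-cell stage. lft2, which encodes a Lefty inhibitor of Nodal, held 47.4 and 16.2 at the 512-cell stage, against 0.766 and 0.205 at the 128-cell stage. The co-receptor gene tdgf1 held 25.5 and 22.8 at the 512-cell stage, against 6.42 and 5.60 at the 128-cell stage (1.84 ± 0.14). The unlabelled 128-cell library held 1.96 for tdgf1. Ligand, inhibitor and co-receptor were all higher, with no overlap between the stages. On the Bmp side the ligand genes admp (4.40) and BMP2 (3.04), the antagonist chrd (1.98) and the decoy receptor BAMBI (2.07) rose. admp, a Bmp ligand of the dorsal side, held 30.2 and 21.4 at the 512-cell stage, against 0.0863 and 0.451 at the 128-cell stage. Of the 10, admp, lft2, ndr1, BMP2, chrd, lft1 and TGFBR1 lay under 1 scaled FPKM in both 128-cell libraries. They entered only through the later stages, so the share of this list is given as a description.

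In the Wnt list 6 of 23 tested genes rose (26.1%, against 12.2% of all genes), and all 6 passed without the block. wnt11f2, a Wnt ligand that directs cell movements in gastrulation, held 56.5 and 22.0 scaled FPKM at the 512-cell stage, against 1.15 and 0.628 at the 128-cell stage. dkk1b, a secreted Wnt inhibitor of the organizer, held 14.3 and 8.47 at the 512-cell stage, against 0.876 and 0.639 at the 128-cell stage, and was listed at 0 in the unlabelled libraries. The receptor genes FZD7 (1.87) and both IDs named FZD8 (3.10 and 2.15) rose as well. Of the 6, dkk1b, SP5, FZD7 and both FZD8 IDs lay under 1 scaled FPKM in both 128-cell libraries. They entered only through the later stages, so the share of the Wnt list is given as a description. In the Fgf and MAPK list 5 of 40 rose (12.5%, against 12.2% of all genes). They were led by DUSP6, a phosphatase that dampens MAP kinase downstream of Fgf, with 45.6 and 17.0 at the 512-cell stage, against 0.358 and 0.0430 at the 128-cell stage. FGF20, a ligand, held 11.7 and 18.5 at the 512-cell stage, against 2.23 and 2.38 at the 128-cell stage. The receptor gene fgfr4 rose by 1.69. Of the 5, DUSP6, RASL11B, map2k4b and fgfr4 lay under 1 scaled FPKM in both 128-cell libraries. They entered only through the later stages, so the share of the Fgf and MAPK list is given as a description. Of 10 tested Notch genes 2 rose (20%, against 12.2% of all genes): LFNG (4.67), a sugar transferase that modifies Notch, and DLL1 (2.12), a ligand. RFNG, another such transferase, did not pass (-0.49, adjusted p = 0.0932). Both Notch genes that rose lay under 1 scaled FPKM in both 128-cell libraries and entered only through the later stages. With either 512-cell replicate left out, 1 Notch gene was higher.

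Receptors and a ligand that guide migrating cells showed large changes. aplnrb, an apelin receptor, held 184 and 75.9 scaled FPKM at the 512-cell stage, against 2.84 and 1.10 at the 128-cell stage (5.39 ± 0.16). Its ligand gene apela held 27.1 and 15.5 at the 512-cell stage, against 0.0852 and 0.190 at the 128-cell stage. Both IDs named CXCR4, a chemokine receptor, rose: ENSDARG00000041959 by 4.79 and ENSDARG00000057633 by 4.05. In that list 5 of 26 tested genes rose (19.2%, against 12.2% of all genes). Of the 5, apela and both CXCR4 IDs lay under 1 scaled FPKM in both 128-cell libraries and entered only through the later stages.

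Fast-responding and stress genes rose in 12 of 26 cases (46.2%, against 12.2% of all genes), 11 of them also without the block. GADD45B, a growth-arrest and DNA-damage gene, has 2 IDs, of which ENSDARG00000013576 held 92.3 and 97.4 scaled FPKM at the 512-cell stage, against 5.29 and 2.17 at the 128-cell stage. HSPB1, a small heat shock protein gene, held 26.3 and 27.7 at the 512-cell stage, against 0.148 and 0.519 at the 128-cell stage. The change of HSPB1 was 4.41 ± 0.16 (adjusted p = 5.92e-05). HSPB1 lay under 1 scaled FPKM in both 128-cell libraries and entered only through the later stages, so this result is given as a description. FOS (3.62), JUN (1.43), atf4b (2.95), IER5 (3.44) and IER5L (3.73), factors of the early response in many cell types, rose as well. These genes too lay under 1 scaled FPKM in both 128-cell libraries and entered only through the later stages. The share of this list and its count without the block are therefore given as a description. In the larger chaperone list only HSPB1 and dnajc8 rose among 46 tested genes (4.35%, against 12.2% of all genes), dnajc8 with the block alone, and DNAJB12 fell.

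Cell cycle genes rose in 9 of 105 cases (8.57%, against 12.2% of all genes), and in 5 without 512-cell replicate 1. lrwd1, a partner of the origin recognition complex, held 20.05 and 29.7 scaled FPKM at the 512-cell stage, against 0.0207 and 0.278 at the 128-cell stage. WEE1, the kinase that holds Cdk1 inactive, held 8.74 and 6.82 at the 512-cell stage, against 0.719 and 0.989 at the 128-cell stage. The 6 that also passed without the block include lrwd1, WEE1 and BTG1 (2.70), an anti-proliferative gene. The others were the Cdk inhibitor genes cdkn1ca (1.50) and cdkn1a (1.42), and fbxo5 (1.28), an inhibitor of the anaphase-promoting complex. Of the 6, lrwd1, WEE1, BTG1, cdkn1ca and cdkn1a lay under 1 scaled FPKM in both 128-cell libraries. They entered only through the later stages, so their passing without the block is given as a description. In the p53 and cell death list 3 of 33 were higher (9.09%), 1 with either 512-cell replicate or 128-cell replicate 2 left out, and only TP53INP1 (2.03), a p53-induced gene, held without the block. TP53INP1 lay under 1 scaled FPKM in both 128-cell libraries and entered only through the later stages. mdm2 and bcl2l12 were higher by 0.74 and 0.65, and had changes of -0.40 and -0.16 with 1 nuclear total, where the all-gene median was -0.81. For no member of the p53 and cell death list, TP53INP1 included, did the labelled change exceed the unlabelled one by test.

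Among histone genes 6 of 12 rose (50%, against 12.2% of all genes), with a list median of 1.13. The histone H3.3 gene h3f3a held 257 and 177 scaled FPKM at the 512-cell stage, against 38.3 and 25.3 at the 128-cell stage (2.74 ± 0.15). h2ax, which marks DNA breaks, held 6.28 and 3.62 at the 512-cell stage and was listed at 0 in both 128-cell libraries. h3c13a (2.35) and histh1l1 (1.63), a linker histone gene, rose, and these 4 passed without the block while h2ax2 and hist2h3c did not. In unlabelled RNA h2ax2 stood at 44.6 at the 512-cell stage, against 15.0 at the 128-cell stage, and hist2h3c at 16.7 against 3.685. The labelled change exceeded the unlabelled one by test for 3 members of the list. Both h2ax and histh1l1 lay under 1 scaled FPKM in both 128-cell libraries and entered only through the later stages. Of 114 chromatin modifiers 5 rose (4.39%, against 12.2% of all genes) and SETD4 fell, and 3 were higher with 512-cell replicate 1 or either 128-cell replicate left out and 2 with 512-cell replicate 2 left out. BRD2, a bromodomain reader of acetylated histones, held 94.8 in both 512-cell libraries, against 6.65 and 8.79 in the 128-cell libraries. The other 4, CBX1, brd3a, hdac9b and ing5b, changed by less, and of these only hdac9b (0.95) held without the block. hdac9b lay under 1 scaled FPKM in both 128-cell libraries and entered only through the later stages. Of 76 genes of RNA polymerases and basal transcription 4 rose, ccnl1b (2.35), polr3gla (2.16), MED17 (1.50) and POLR2F (1.08), and the Mediator subunit gene MED27 fell. That is 5.26%, against 12.2% of all genes, POLR2F missed the threshold without the block (adjusted p = 0.148), and 1 gene was higher without 512-cell replicate 1. rn7sk, the 7SK RNA that holds the elongation factor P-TEFb inactive, held 27.8 and 46.0 at the 512-cell stage, against 0 and 2.73 at the 128-cell stage (4.25 ± 0.39). It rose in unlabelled RNA too, as described below. Of the basal transcription genes that rose, polr3gla and MED17 lay under 1 scaled FPKM in both 128-cell libraries and entered only through the later stages.

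Of 165 tested genes that process RNA 32 rose (19.4%, against 12.2% of all genes) and none fell. The change was small for most, with a list median of 0.08 against -0.04 over all genes, and 12 of the 32 passed without the block. srsf5a, an SR splicing factor gene, held 213 and 166 scaled FPKM at the 512-cell stage, against 17.7 and 11.8 at the 128-cell stage (3.61 ± 0.14). hnrnpa0b, an RNA-binding hnRNP gene, held 228 and 133 at the 512-cell stage, against 17.2 and 12.9 at the 128-cell stage. The helicase gene DDX5 (2.54), the splicing repressor PTBP1 (2.48 for ENSDARG00000019362) and the cold-inducible RNA-binding gene cirbpb (1.80) rose too. That PTBP1 ID lay under 1 scaled FPKM in both 128-cell libraries and entered only through the later stages. With 1 nuclear total 6 members were higher and 87 lower, beside 527 higher and 4941 lower among all 7758 genes tested under that total. Cytosolic ribosomal protein genes rose in 14 of 55 cases (25.5%, against 12.2% of all genes), with a list median of 0.43. RPL13A held 19.5 and 21.1 at the 512-cell stage, against 7.28 and 8.14 at the 128-cell stage. Only 5 of the 14 passed without the block, among them RPL39 (2.44) and rpl7a (1.49). With 1 nuclear total 2 of this list were higher and 17 lower, to be read beside the same all-gene counts. How reads shared between similar gene copies were counted is not given in the sources used here, so values of single ribosomal protein genes are uncertain. Without 512-cell replicate 1 the RNA-processing count was 19 and the ribosomal protein count 4, and without 512-cell replicate 2 the ribosomal protein count was 9. Of 52 translation factor genes 4 were higher (7.69%) and 2 without 512-cell replicate 1, led by eef1a1l1, an elongation factor gene, with 232 and 131 at the 512-cell stage, against 38.0 and 16.8 at the 128-cell stage.

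**Figure D3:**
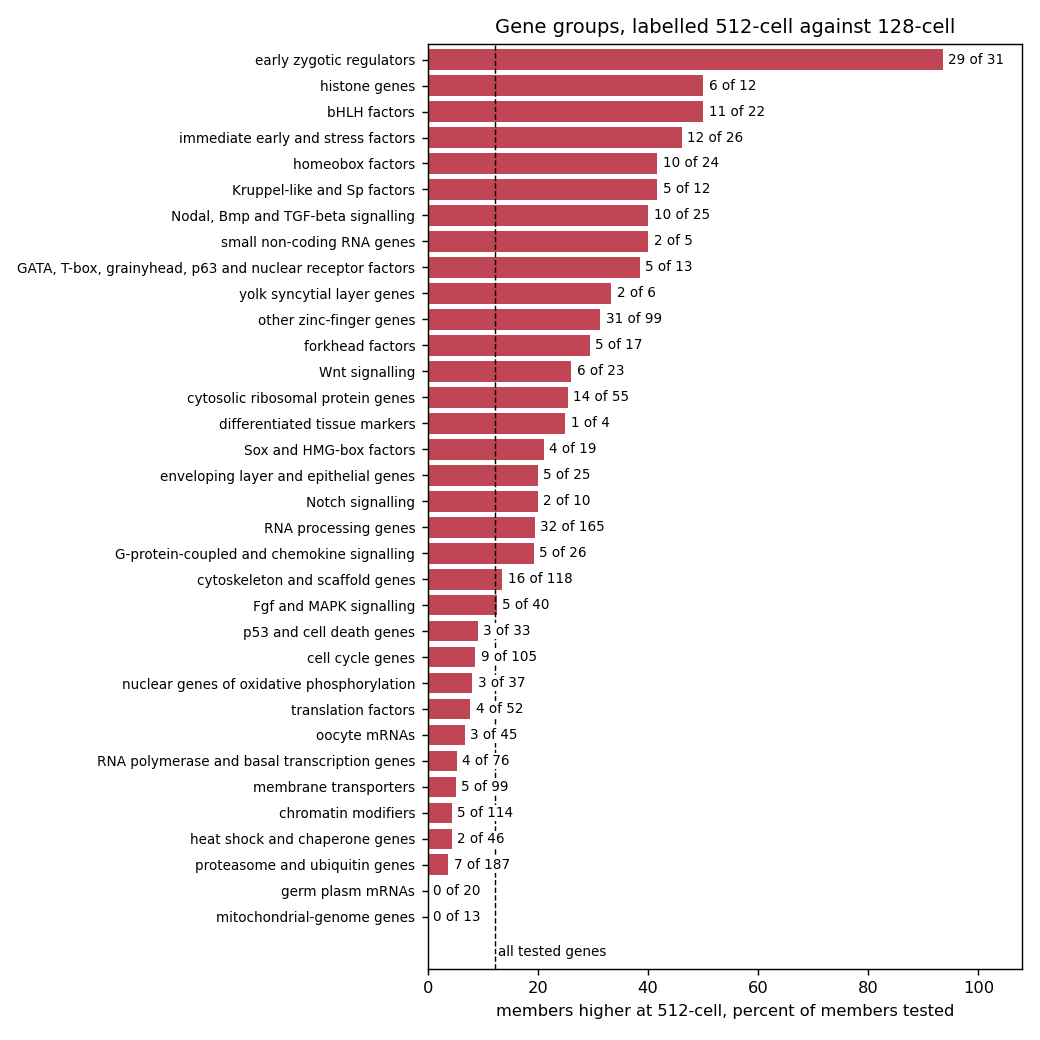
Percent of the tested members of each gene list that were higher at the 512-cell stage, with counts beside the bars and the 12.2% of all tested genes as a dashed line. Early zygotic regulators (29 of 31), histone, helix-loop-helix and fast-response genes stand at the top, and germ plasm mRNAs (0 of 20) and mitochondrial-genome genes (0 of 13) at the bottom.

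Among the 12 most abundant named genes that rose, 7 held without the block: klf17, mxtx2, znf1089, h3f3a, srsf5a, hmga1a and cirbpb. The other 5 had high values in the labelled 128-cell libraries already. HNRNPA1L2, an hnRNP A1 type gene, held 997 and 840 scaled FPKM at the 512-cell stage, against 385 and 344 at the 128-cell stage (1.33 ± 0.16, adjusted p without the block 0.234). nanog, a homeobox factor supplied by the mother that is needed for early zygotic transcription in zebrafish, held 364 and 449 at the 512-cell stage, against 162 and 214 at the 128-cell stage (1.11 ± 0.14, adjusted p without the block 0.277). mycla, a Myc gene, held 699 and 382 at the 512-cell stage, against 164 and 83.6 at the 128-cell stage. The unlabelled 128-cell library, placed on the labelled scale as described below, held 198 for HNRNPA1L2, 174 for nanog and 57.1 for mycla. How much of their labelled 128-cell values is background of the purification was not tested. For all 3 the stages did not overlap, although nanog had a change of -0.092 with 1 nuclear total. hnrnpa0l and PPP2CA, the catalytic subunit gene of a protein phosphatase, also had changes below 0 there, of -0.0091 and -0.61. The changes of nanog, hnrnpa0l and PPP2CA under that total lay above its all-gene median of -0.81, and none of them passed.

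Other genes among the largest rises have roles at the membrane and in metabolism. marcksl1b, an actin-binding membrane protein gene, held 119 and 93.4 scaled FPKM at the 512-cell stage, against 1.27 and 1.85 at the 128-cell stage. Its relative marcksl1a (3.90), the kinase scaffold gene akap12b (3.85) and the small GTPase gene RHOV (2.72) rose with it. In all 16 of 118 tested cytoskeleton and scaffold genes rose (13.6%, against 12.2% of all genes). Of the 16, marcksl1a, akap12b, RHOV, rhoaa, actc1a, DYNC2I2 and kif20bb lay under 1 scaled FPKM in both 128-cell libraries. They entered only through the later stages, so the share of this list is given as a description. That list had 8 higher without the block and 6 with either 512-cell replicate left out. slc25a55a, a mitochondrial carrier, held 49.8 and 40.3 at the 512-cell stage, against 0.133 and 0.453 at the 128-cell stage. It entered only through the later stages. It was 1 of 5 of 99 transporter genes that rose (5.05%, against 12.2% of all genes), and 3 rose with either 512-cell replicate left out. asb11, a substrate adaptor of a ubiquitin ligase, held 40.6 and 28.6 at the 512-cell stage, against 0.310 and 0 at the 128-cell stage. It too entered only through the later stages. In all 7 of 187 proteasome and ubiquitin genes rose (3.74%, against 12.2%). Of that list 3 were higher without the block, 2 with 512-cell replicate 1 left out, 3 with 512-cell replicate 2 left out and 4 when 128-cell replicate 1 was omitted. cst3 (4.84), a cysteine protease inhibitor, NET1 (4.61), a guanine nucleotide exchange factor gene, and inka1a (4.46) complete the set. Nuclear genes of oxidative phosphorylation rose in 3 of 37 cases (8.11%), 1 with 512-cell replicate 1 or either 128-cell replicate left out, and 1 of these, COX5B (1.83), held without the block. ATP5MC3, another of the 3, had a change of -0.33 with 1 nuclear total, where the all-gene median was -0.81. For no member of that list did the labelled change exceed the unlabelled one by test. COX5B stood at 2.71 in the unlabelled 512-cell library, against 0.884 in the unlabelled 128-cell library. In labelled RNA COX5B lay under 1 scaled FPKM in both 128-cell libraries and entered only through the later stages.

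The falling genes were few and their changes small. Of the 113, 46 averaged 10 scaled FPKM or more at the 128-cell stage, 93 had no overlap between the stages, and in 42 the 3 stages descended without overlap, as in 154 of all 7317 genes. The shares without overlap over all genes were 21.4% upwards and 18.2% downwards. The 65 falling genes with a symbol other than a clone name belong to many processes, and no list had more than 4 falling members. The calls depend on the block: 6 passed without it, and of the 20 named genes with the largest falls only MED27, fam162a and DNAJB12 did. In the 6 fits that left out 1 labelled library, only fam162a of the 20 passed every time. Without 512-cell replicate 1, only 4 of the 113 were still called. All genes called lower numbered 36 with 128-cell replicate 1 left out, and 55 and 52 with a 256-cell replicate left out.

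**Figure D4:**
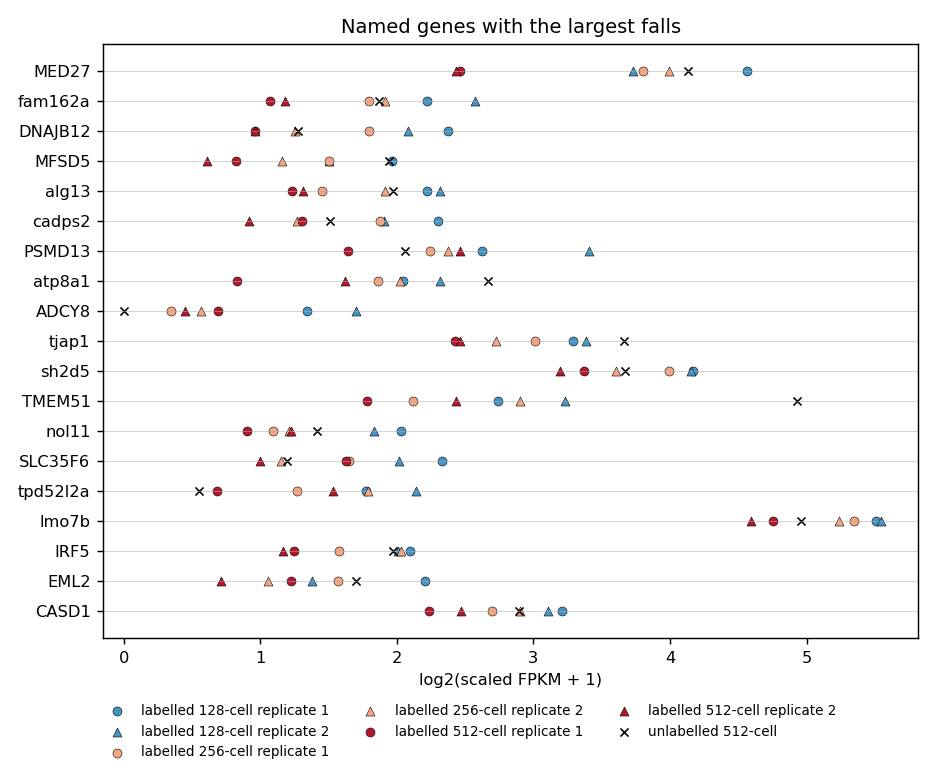
Levels of 19 of the 20 named genes with the largest falls, 1 row per gene, as log2(scaled FPKM + 1); circles are replicate 1, triangles replicate 2, colours the 3 stages, and crosses the unlabelled 512-cell library. The 512-cell symbols lie left of the 128-cell symbols in every row, by log2 changes of -1.70 (MED27) to -0.80 (CASD1), with unlabelled values up to 30.2 scaled FPKM (lmo7b).

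MED27, a subunit of the Mediator complex that links activators to RNA polymerase, held 4.52 and 4.41 scaled FPKM at the 512-cell stage, against 22.6 and 12.3 at the 128-cell stage (-1.70 ± 0.26, adjusted p = 0.00888). fam162a, a mitochondrial protein gene that hypoxia induces in human cells, held 1.11 and 1.27 at the 512-cell stage, against 3.67 and 4.94 at the 128-cell stage (-1.27 ± 0.16, adjusted p = 0.00385). DNAJB12, a chaperone partner in the endoplasmic reticulum membrane, held 0.948 in both 512-cell libraries, against 4.18 and 3.24 in the 128-cell libraries. In these genes the 512-cell replicates were closer to each other than the 128-cell replicates. Absence of overlap between the stages was a condition for naming them among the largest falls. ENSDARG00000076350, without a symbol, held 1.46 and 1.37 at the 512-cell stage, against 6.03 and 3.92 at the 128-cell stage, and passed without the block (adjusted p = 0.0288). The largest fall without a symbol, ENSDARG00000087264, held 0.534 and 1.31 at the 512-cell stage, against 5.12 and 9.72 at the 128-cell stage, and did not (adjusted p = 0.229).

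The other named falls passed only with the block. lmo7b, a LIM-domain protein of cell junctions, was the most abundant, with 26.0 and 23.2 scaled FPKM at the 512-cell stage, against 44.6 and 45.6 at the 128-cell stage (-0.85 ± 0.13, adjusted p without the block 0.177). tjap1, a tight-junction-associated protein gene, held 4.38 and 4.50 at the 512-cell stage, against 8.80 and 9.44 at the 128-cell stage. Membrane and secretory-path genes were alg13 (-0.99), of protein N-glycosylation, cadps2 (-0.99), of vesicle release, atp8a1 (-0.95), a phospholipid flippase, MFSD5 (-1.02) and SLC35F6 (-0.86), transporters, and TMEM51 (-0.88). PSMD13 (-0.97) encodes a proteasome subunit and nol11 (-0.87) a nucleolar protein of ribosome production. ADCY8 (-0.95) is an adenylyl cyclase gene, IRF5 (-0.85) an interferon regulatory factor gene, EML2 (-0.82) a microtubule protein gene and CASD1 (-0.80) a sialic acid acetyltransferase gene. sh2d5 (-0.88) and tpd52l2a (-0.85) fell too.

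Maternal mRNAs were the list with most falls by count, though the lists differ in size. Of 45 tested oocyte mRNAs 4 were lower, against 1.54% of all genes, and 3 were higher (6.67%, against 12.2%). The list median was -0.21 against -0.04 over all genes. slbp2, which binds histone mRNA in the oocyte, held 6.38 and 15.0 scaled FPKM at the 512-cell stage, against 13.2 and 24.7 at the 128-cell stage. CPEB1, which controls polyadenylation of stored mRNA, held 9.86 and 6.93 at the 512-cell stage, against 21.3 and 10.6 at the 128-cell stage. The replicates overlapped between stages for slbp2, and within each replicate number the 512-cell value was the lower for both genes. GDF9 (-0.80), an oocyte growth factor gene, and MOS (-0.76), a kinase of meiotic arrest, were the others, and none of the 4 passed without the block. In unlabelled RNA CPEB1 stood at 6.925 scaled FPKM at the 512-cell stage, against 12.8 at the 128-cell stage. MOS (2.86 against 4.38) and GDF9 (1.37 against 1.82) were also lower there, and slbp2 was higher (34.7 against 25.3). The 3 that rose were tdgf1, YBX1 (1.78), which binds stored mRNA, and nanog. No germ plasm mRNA passed among 20 tested, with a list median of -0.14, and DAZL, a germ-cell RNA-binding protein gene, held 10.3 and 12.3 at the 512-cell stage, against 17.3 and 15.7 at the 128-cell stage (-0.51, adjusted p = 0.141). None of the 13 genes of the mitochondrial genome passed either, with a list median of -0.46. Of 4 tested markers of differentiated tissue, actc1a, a muscle actin gene, rose (1.60) and stood at 2.43 and 1.69 at the 512-cell stage and at 0 in both 128-cell libraries. With either 512-cell replicate left out, actc1a missed the filter and was not tested. The other tested markers were FABP3, HBEGF and hbegfa, of which HBEGF and hbegfa, growth factor genes, entered by their symbols. The list summed to 14.6 and 10.9 scaled FPKM at the 512-cell stage, against 18.4 and 10.3 at the 128-cell stage.

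Unlabelled libraries measured how much of each change the purification shows without the label. Their values were placed on the labelled scale by their own median ratio, and each stage has 1 library. In unlabelled RNA the 894 genes had a median of 0.784 scaled FPKM at the 512-cell stage, against 0.450 at the 128-cell stage, and a median change of 0.12, against 1.76 in labelled RNA. The difference of the 2 changes was tested in 1 limma fit of all 9 libraries with the block, which lends the spread of the labelled libraries to the unlabelled ones. In that fit the labelled change exceeded the unlabelled one for 449 of 7406 genes (6.06%) and lay below it for 139 (1.88%). Of the risers, 874 were in the fit and 403 exceeded the unlabelled change. All 30 of the named genes with the largest rises did, by 2.50 (GATA3) to 5.27 (marcksl1b). Without the block the difference passed for 131 and 3 genes.

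**Figure D5:**
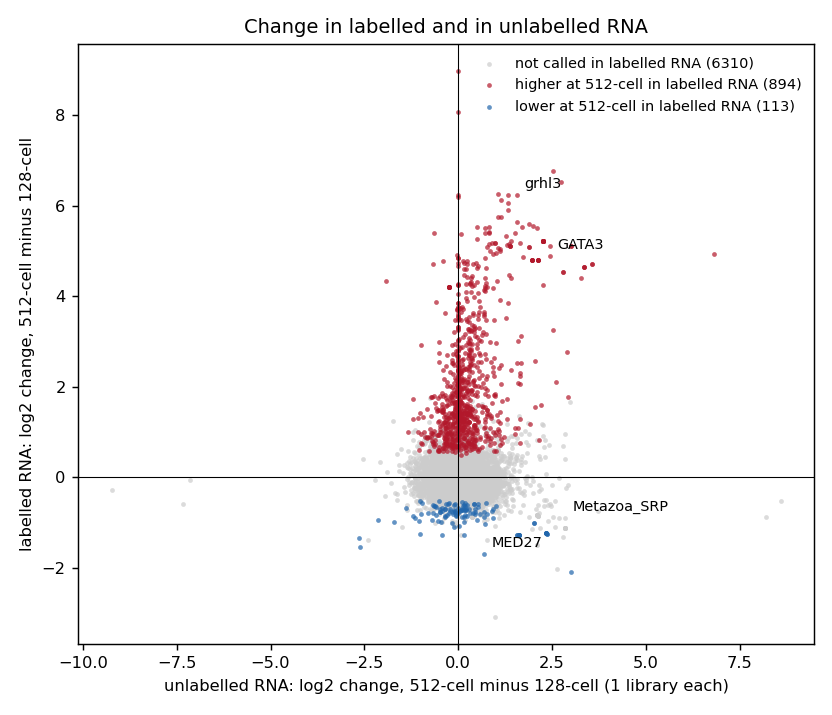
Log2 change in labelled RNA (vertical) against log2 change in unlabelled RNA (horizontal), both 512-cell minus 128-cell, 1 point per tested gene. Red points (894) spread upwards around a median unlabelled change of 0.12, and GATA3 (2.45) and Metazoa_SRP (2.85) are among the points far to the right.

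Some risers also moved in unlabelled RNA. GATA3 was at 4.45 scaled FPKM in the unlabelled 512-cell library, against 0 in the unlabelled 128-cell library, a change of 2.45 beside 4.89 in labelled RNA. In the unlabelled 512-cell library HSPB1 was at 2.09, against 0.171 in the unlabelled 128-cell one, and akap12b was at 1.59 in the 512-cell library, against 0.0382 in the 128-cell one. For these 3 the labelled change was still the larger by test (differences of 2.50, 2.99 and 2.50). rn7sk changed by 2.25 in unlabelled RNA, and its difference of 2.00 did not pass (adjusted p = 0.119). The 113 falling genes had unlabelled medians of 6.61 at the 512-cell stage, against 6.74 at the 128-cell stage. Their median unlabelled change was 0.09. For 24 of the 112 in the fit the labelled change lay below the unlabelled one by test, and for 1 it lay above. For 4 of the 20 named falls the difference passed: MED27 (-2.34), tjap1 (-1.76), TMEM51 (-1.52) and fam162a (-1.36). DNAJB12 moved in unlabelled RNA by -1.01, and its difference was -0.22 (adjusted p = 0.681).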

How the data were processed

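Per the labels' protocols, RNA from staged embryos was biotinylated, captured and sequenced. The deposited values are FPKM per gene and library, per the file headers. The submitters' processing notes name CASAVA 1.7, TopHat 1.3.3, Cufflinks 2.0.2 and the build Zv9. Annotation version, multi-read handling and strand are not given in the sources used here. The table holds 8969 Ensembl IDs, and a separate name table, not the deposited one, gave 7028 of them a symbol. Read depth is unknown. FPKM were divided by median-of-ratios factors over nuclear genes and tested as log2(FPKM + 1) for genes with at least 1 scaled FPKM in 2 of 6 labelled libraries. limma 3.58.1 (R 4.3.3, trend, two-sided, Benjamini-Hochberg adjustment) fitted stage plus replicate number, and was tested on simulated data. Deviations of same-numbered libraries from their stage means correlated at 0.741, 0.666 and 0.737 over genes (512/256, 512/128 and 256/128-cell). With 2 libraries a stage, replicate 2 mirrors replicate 1 in this check. Unlabelled libraries carry replicate number 1.

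Named genes were the 30 largest rises and 20 largest falls among called genes with a symbol other than a clone name, no overlap between the stages and a mean of 1 scaled FPKM or more in the higher stage. To these were added the 12 most abundant risers, up to 4 genes per list with the smallest adjusted p, and 2 IDs without a symbol each way. Further list members are named by their call, after their values were seen. The comparison and the 34 lists were chosen with earlier results of these data known. Lists match symbols and hold a few members that their names do not describe, such as trnau1apb among small RNAs and JAGN1 among Notch genes. Tables with 1 value per stage were not used. Alternatives changed block, scaling, pseudocount, filter, variance trend and libraries. A few genes that the rule selected are not reported here.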

Additional observations from a re-analysis of the deposited data

Results flagged for a closer look

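The change from 128-cell to 512-cell differed between labelled and unlabelled RNA for 449 genes upwards and 139 downwards, by the limma test of the difference itself over 9 libraries with the replicate block. Genes that rose in labelled RNA are described above; the ones below did not rise in it, and each was singled out because its labelled change lay below its unlabelled change.

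Of the named falls, the difference of log2 changes was -2.34 for MED27, -1.76 for tjap1, -1.52 for TMEM51 and -1.36 for fam162a. Of the falling list members it was -1.22 for slbp2 and -1.41 for ube2ib, which encodes the SUMO-conjugating enzyme. In ENSDARG00000087264 it was -5.01: the unlabelled library held 127 scaled FPKM at the 512-cell stage, against 15.0 at the 128-cell stage. TMEM51 was higher in every unlabelled library, with 29.4 at the 512-cell stage, against 17.9 at the 128-cell stage, than in any labelled one (2.44 and 4.39 at the 512-cell stage, against 5.67 and 8.40 at the 128-cell stage).

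A further 3 genes did not pass in labelled RNA. Metazoa_SRP, a signal recognition particle RNA gene, differed by -3.73, with 411 scaled FPKM in the unlabelled 512-cell library, against 56.1 in the unlabelled 128-cell library. Its labelled libraries held 1.41 and 13.4 at the 512-cell stage, against 1.93 and 41.0 at the 128-cell stage. 5_8S_rRNA, a ribosomal RNA gene, differed by -1.85, with 768 scaled FPKM in unlabelled RNA at the 512-cell stage, against 217 at the 128-cell stage. Its labelled values were 386 and 244 at the 512-cell stage, against 375 and 273 at the 128-cell stage. hook2, a microtubule adaptor gene, differed by -1.18. Each unlabelled change rests on 1 library per stage.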

How the results depend on the processing

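Labelled RNA gave 894 genes higher and 113 lower. Pseudocounts of 0.1 and 5, no filter, the 4 compared libraries alone, no variance trend and deposited values with the block kept both counts within 1.5 times. Upper-quartile scaling gave 803 and 170. Other settings moved them. Without the replicate block 552 and 6 were called, and without the block on deposited values 369 and 0 (limma; at an unadjusted p under 0.05, 599 and 16). With 1 nuclear total and the block 527 and 4941 were called, and without the block 1 and 0 (364 and 31 unadjusted). A filter of 5 scaled FPKM left 496 higher. Leaving out 1 library gave 433 to 811 higher and 26 to 107 lower: 433 and 26 without 512-cell replicate 1, 553 and 30 without 512-cell replicate 2, 36 lower without 128-cell replicate 1, 55 and 52 lower without either 256-cell replicate.

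The labelled change exceeded the unlabelled one for 449 genes and lay below it for 139. These were 131 and 3 without the replicate block, 2886 and 36 on deposited values, 267 and 139 with 1 nuclear total, and 0 and 0 without the block on deposited values (563 and 5 unadjusted) or with 1 nuclear total (101 and 29 unadjusted). Leaving out 1 library gave 253 to 671 and 43 to 281, with the lowest counts without 512-cell replicate 2 and the highest without 128-cell replicate 2. The comparison of 4 libraries alone was not run for this difference.

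With 1 nuclear total, with and without the block, log2 changes turned negative for hnrnpa0l (-0.0091), nanog (-0.092), bcl2l12 (-0.16), eif4e2rs1 (-0.21), ATP5MC3 (-0.33), mdm2 (-0.40) and PPP2CA (-0.61). All lay above the all-gene median of -0.81 under that total, so their direction relative to that median did not reverse. None passed there: with the block, standard errors were 0.29 to 0.52 and adjusted p-values (limma) 0.28 to 0.99. Of 157 named genes, 41 lost their call without the block. The cause of these moves was not tested. The unknown depth limits low genes most.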
